A study of Homo sapiens with 24 samples.

Results

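The regions described here are the S100A8-Flag and S100A9-Flag binding sites of ethanol-treated cells that had no confident counterpart after tamoxifen. They were selected on the peak calls themselves. Peaks with a q value of at most 1e-07 were joined across the replicates of a protein and treatment when they shared 1 bp or more. A joined region was a confident site if 2 or more replicates contributed a peak. A confident EtOH site was kept when it overlapped no confident TAM site of the same protein, and such sites are called unshared here. The S100A8 lists gave 171 unshared sites among 1225 EtOH sites (14.0%), and the S100A9 lists gave 110 among 1394 (7.89%). The pooled set held 281 sites of 2619. They lay at 279 places, because 2 places carried an unshared site of both proteins. The other 2338 EtOH sites overlapped a confident TAM site and are called shared.

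All cells were MCF-10A, a nontransformed human mammary epithelial line, that carried ER-Src, a fusion of the v-Src kinase to the hormone-binding part of the estrogen receptor ESR1. Each stable line also expressed S100A8 or S100A9 with a Flag tag from a retroviral vector, in addition to the endogenous proteins. Cells received 1 μM 4-hydroxytamoxifen (TAM), which activates ER-Src and induces transformation, or ethanol (EtOH) as the vehicle, for 24 hours. Peak lists of 11 anti-Flag libraries were used. S100A8-Flag had 2 replicates in EtOH and 3 in TAM, and S100A9-Flag had 3 in either condition. The titles number the libraries of a group as replicates, and the paper's methods speak of biological replicates. Each was called against its own chromatin input. No list of cells without a tagged protein was used here.

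S100A8 and S100A9 are small calcium-binding proteins that pair with each other and are best known as secreted inflammatory signals of myeloid and epithelial cells. Neither has a conventional DNA binding domain, and how they would reach chromatin is not read from a peak list. Sites at gene starts usually hold GC-rich sequence and motifs of ETS and KLF/SP1 factors, whereas distal sites in epithelial cells often hold AP-1 or C/EBP motifs.

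The sequences below show the kinds of site that the results turn on. Each is 101 bases of hg19 around a summit on the plus strand, in lower case, and capitals mark a match to 1 of 13 motifs searched on both strands. The first group contains sites among the highest of the EtOH lists or without any TAM peak of their protein. The FAT2 site (chr5:151007863-151007963), the HAUS7 site (chrX:152728746-152728846) and the S100A8 summit at KCNIP3 (chr2:95981960-95982060) held no match in this window. The CFAP99 site (chr4:2431725-2431825) had a C/EBP match at its summit, and the PLGLB1 site (chr2:87623861-87623961) had a CCAAT box within a short tandem repeat.
FAT2, S100A8: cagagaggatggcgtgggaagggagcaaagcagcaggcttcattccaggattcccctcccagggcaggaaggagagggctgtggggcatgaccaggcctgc
HAUS7, S100A8: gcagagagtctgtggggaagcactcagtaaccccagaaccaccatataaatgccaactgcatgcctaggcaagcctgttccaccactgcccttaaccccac
KCNIP3, S100A8: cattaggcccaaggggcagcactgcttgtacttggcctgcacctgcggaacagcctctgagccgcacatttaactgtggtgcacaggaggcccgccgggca
CFAP99, S100A9: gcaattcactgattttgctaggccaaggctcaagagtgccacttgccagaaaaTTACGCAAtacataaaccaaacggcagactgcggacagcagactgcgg
PLGLB1, S100A9: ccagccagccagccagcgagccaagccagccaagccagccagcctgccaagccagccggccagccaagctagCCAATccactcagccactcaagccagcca

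The second group contains sites with a motif of a factor studied in this system. The RBM17 site (chr10:6128486-6128586) and the ARHGEF4 site (chr2:131555148-131555248) held a CTCF match. The KCNJ12 site (chr17:21305715-21305815) and the S100A9 summit at PRKAG2 (chr7:151394117-151394217) held an AP-1 match. The ELF2 site (chr4:140099156-140099256) held a KLF/SP1 match followed by a STAT3 match, and the IL1RAP site (chr3:190231398-190231498) held a C/EBP match.
RBM17, S100A8: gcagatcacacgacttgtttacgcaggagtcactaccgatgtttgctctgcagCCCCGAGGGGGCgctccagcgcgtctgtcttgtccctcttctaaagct
ARHGEF4, S100A9: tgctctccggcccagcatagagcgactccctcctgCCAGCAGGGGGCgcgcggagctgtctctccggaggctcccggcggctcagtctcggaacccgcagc
KCNJ12, S100A8: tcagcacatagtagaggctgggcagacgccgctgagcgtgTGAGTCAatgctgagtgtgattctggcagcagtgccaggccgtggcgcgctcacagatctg
PRKAG2, S100A9: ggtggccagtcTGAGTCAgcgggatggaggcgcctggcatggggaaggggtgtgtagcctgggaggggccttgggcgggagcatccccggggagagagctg
ELF2, S100A9: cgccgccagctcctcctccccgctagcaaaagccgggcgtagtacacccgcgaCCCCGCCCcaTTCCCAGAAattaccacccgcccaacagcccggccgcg
IL1RAP, S100A9: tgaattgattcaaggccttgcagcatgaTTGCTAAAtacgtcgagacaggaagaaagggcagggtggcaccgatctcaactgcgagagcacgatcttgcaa

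The EtOH lists held 9523 to 34563 deposited peaks each, of which 1853 to 4609 had a q value of at most 1e-07, whereas the TAM lists held 53374 to 109395, of which 21518 to 40735 did. The read depth of the libraries is unknown, and fewer peaks from fewer reads and fewer peaks from weaker binding cannot be told apart in these lists. Confident EtOH sites stood at the starts of 1 of 8 basal breast epithelial marker genes (KRT17), 0 of 4 luminal genes and 0 of 4 leukocyte genes. Confident TAM sites stood at 6, 2 and 1 of them, so the EtOH sites alone say little about the cell type.

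Most unshared sites were not bare after tamoxifen. Of the 171 S100A8 sites, 135 (78.9%) had a deposited peak, at any q value up to 0.05, in at least 2 S100A8 TAM libraries, against a background of 97.1% over all S100A8 EtOH sites. Of the 110 S100A9 sites, 89 (80.9%) had one in at least 2 S100A9 TAM libraries, against 98.4% over all S100A9 EtOH sites. The rule itself sets these shares, which are given as a description. Most of the sites had 1 TAM library past the threshold and lacked a second, and their TAM peaks were also weaker than those of shared sites. The highest of their 3 TAM values of −log10 q had a median of 11.4 for S100A8 and 10.5 for S100A9. At shared sites it was 23.5 and 27.2. One TAM library called 131 of the S100A8 sites, none called 37, and 2 called the remaining 3 at peaks that did not touch each other. Among the S100A9 sites, 1 library called 76, none called 33 and 2 called 1. The number of sites therefore moved with single libraries. Without TAM replicate 1, 2 or 3, the S100A8 set held 383, 354 or 333 sites and the S100A9 set 248, 262 or 337. Without EtOH replicate 1, 2 or 3, the S100A9 set held 20, 72 or 22 sites, and S100A8, with 2 EtOH replicates, allows no such count.

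The second highest of the 3 TAM values of −log10 q had a median of 4.66 over the S100A8 sites and 5.11 over the S100A9 sites, against a threshold of 7. At shared sites the medians were 16.0 and 18.1, a gap that the rule in part sets. The second value was at least 5 at 76 unshared S100A8 sites (44.4%) and at 59 unshared S100A9 sites (53.6%). Among shared sites this held for 100% and 99.8%. The S100A8 site nearest below the threshold lay in intron sequence 45991 bp from the nearest start, that of ZBED3, with a second TAM value of 6.95. The shared S100A8 site nearest above it, 36 bp from the start of SPCS3, a signal peptidase subunit gene, had 7.01. For S100A9 the neighbours were the site at the start of POLD3, a DNA polymerase delta subunit gene, with 6.94, and the site near C1orf174 with 7.02. The sets overlapped on this value at a few sites only. The second TAM value was above 7 at the 3 S100A8 sites and the 1 S100A9 site called in 2 TAM libraries, reaching 13.3 and 8.92. Conversely, 6 shared sites of each protein were called in 1 TAM library themselves, and the second value at shared sites went down to 5.42 for S100A8 and to 0, no second peak, for S100A9.

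**Figure D1:**
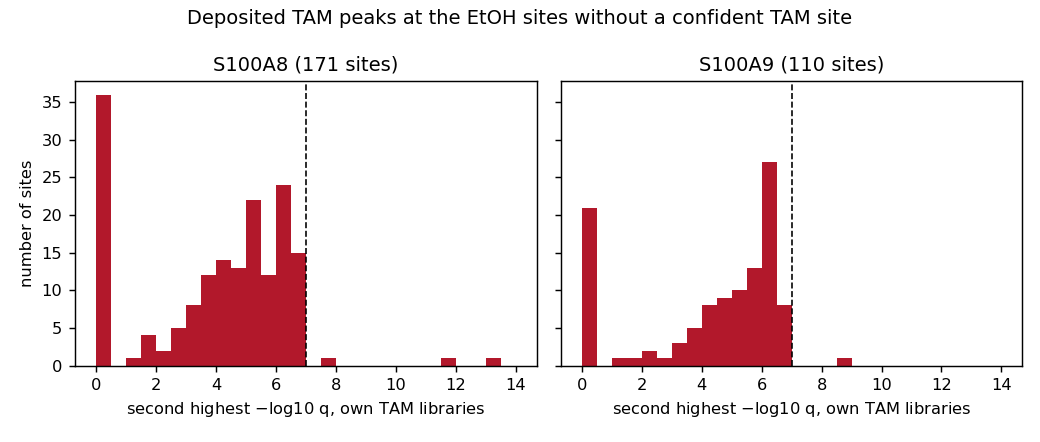
Histograms of the second highest −log10 q (x axis, bins of 0.5, no peak set to 0) among the 3 TAM libraries of the same protein, for the 171 unshared S100A8 sites (left) and the 110 unshared S100A9 sites (right), with the number of sites on the y axis. The dashed line is the threshold of 7. Most sites are spread up to the line, 3 S100A8 sites and 1 S100A9 site lie beyond it, and a bar at 0 holds the sites with a peak in fewer than 2 TAM libraries.

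The EtOH calls of the unshared sites were also close to the threshold. Their 564 calls had a median −log10 q of 9.0, and 68.4% of them were below 10. The 4912 EtOH calls of the shared sites had a median of 9.94, with 51.4% below 10. Median fold enrichment over input was 8.34 and 8.53, so that the sites differed less in fold enrichment than in q. The strongest EtOH call of an unshared site had a −log10 q of 28.2, compared with 105 for the shared sites. The median width of the unshared sites was 318 bp against 394 bp, and the part of width in the overlap was not tested.

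Some unshared sites lay beside a confident TAM site. The nearest confident TAM site of the same protein was less than 1 kb away at 50 of the 281 sites (17.8%) and less than 10 kb away at 132 (47.0%). Over all EtOH sites the shares were 91.2% and 94.3%, since every shared site overlaps a TAM site by the rule. The median distance was 17227 bp for S100A8 and 6655 bp for S100A9. S100A8 had 18407 confident TAM sites and S100A9 had 25133, and the part of this number in the distances was not tested. The 50 sites were 18 of S100A8 and 32 of S100A9.

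The libraries of the other protein were not used to choose a site and give a separate reading of it. S100A8 EtOH libraries called 11 and 15 of the 110 unshared S100A9 sites, and S100A8 TAM libraries called 54, 43 and 44. S100A9 EtOH libraries called 16.4%, 6.43% and 20.5% of the unshared S100A8 sites, and S100A9 TAM libraries called 59.1%, 56.1% and 72.5%. In both directions every TAM library called more of these sites than every EtOH library. The shared sites were also called more often in TAM, with means of 38.6% in EtOH and 92.2% in TAM for S100A8 sites and of 48.6% and 82.0% for S100A9 sites. The mean difference of TAM minus EtOH was 39.5 percentage points (two-sided exact permutation test that rearranged libraries of 1 protein at a time, 200 arrangements, p = 0.01, the smallest they can give). The same difference was 43.5 points at the shared sites, and the 2 were not tested against each other. The direction was not kept with lists of equal length. When each library was reduced to its 1853 top peaks, which also redefines the sites, the difference was −2.72 points (p = 0.17, exact permutation), and 3.67 points at shared sites.

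The other protein's libraries called the unshared sites less often than the shared ones, in EtOH as well as in TAM. Because binding of the proteins is correlated, the TAM differences can in part follow from the choice of the sites. That part was not separated. Over the 6 TAM libraries the difference was −34.5 percentage points, with the unshared sites lower in 6 of 6 (exact sign-flip permutation, 64 arrangements, p = 0.03125, the smallest possible). Over the 5 EtOH libraries it was −29.2 points and lower in 5 of 5, where the smallest p that 32 arrangements can give is the 0.0625 obtained. When sites were compared within 5 strata of their EtOH −log10 q, the TAM difference was −36.8 points. With any deposited peak as a call it was −17.5 points (exact permutation p = 0.03125). The median fold rank of the peaks found at the sites, as a percentile of each TAM list of the other protein, was 17.7 percentile points lower than at shared sites (difference −17.7, lower in 6 of 6 libraries, exact permutation p = 0.03125). With equal numbers of top peaks the rank difference was −7.91 points (exact permutation p = 0.03125).

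**Figure D2:**
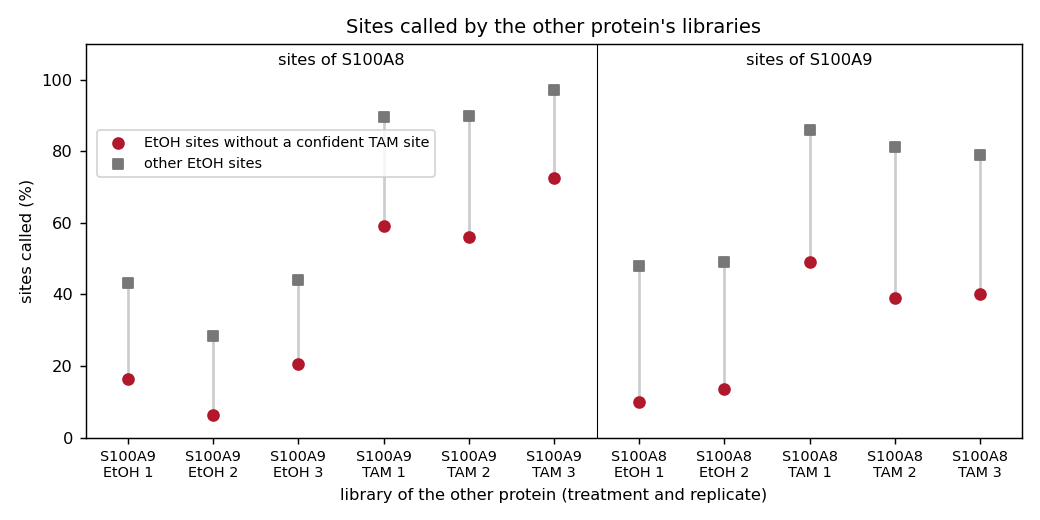
Share of EtOH sites (y axis, %) that each library of the other protein called at q of at most 1e-07, with 1 column for each library (x axis), for unshared sites (red circles) and shared sites (grey squares). The unshared sites lie below the shared ones in all 11 columns, and both kinds of site stand higher in the TAM than in the EtOH columns of a protein.

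Counted by site, 116 of the 171 unshared S100A8 sites (67.8%) were called in at least 2 S100A9 TAM libraries, below the 92.3% of all S100A8 EtOH sites. For the S100A9 sites the count in at least 2 S100A8 TAM libraries was 46 of 110 (41.8%), against a background of 83.4%. The 2 proteins' counts were not tested against each other, since their TAM lists differ in size. All 3 S100A9 TAM libraries called 65 of the S100A8 sites (38.0%), against 74.9% of all S100A8 EtOH sites. All 3 S100A8 TAM libraries called 13 of the S100A9 sites (11.8%), against 58.4%. At the other end, 29 of the 281 sites (10.3%) were called in no TAM library of either protein, and 6 (2.14%) had no deposited TAM peak of either, neither of which the rule allows for a shared site. The distance between summits was measured only where a deposited TAM peak of the other protein overlapped the site, so the site's width limits it. Its medians were 38 to 40 bp at unshared S100A8 sites and 62 to 76 bp at unshared S100A9 sites. At shared sites they were 36 to 42 bp and 49 to 50 bp.

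The unshared sites were less often at gene starts than the shared sites. A summit was called promoter-proximal when it lay within 1500 bp before or 250 bp after the start of a protein-coding transcript. This held for 115 of 281 unshared sites (40.9%, exact 95% binomial interval 35.1 to 46.9), 1480 of 2338 shared sites (63.3%, 61.3 to 65.3) and 60.9% of all EtOH sites. The intervals treat sites as independent and cover counting only. With equal numbers of top peaks in each library, which gives other sites, the shares were 62.5% of 761 unshared and 70.4% of 375 shared sites, a smaller gap. Introns held 26.3% of the unshared and 12.4% of the shared sites, and intergenic sequence held 22.1% and 17.8%. Counting only the annotated start of each gene, rather than all transcript starts, put 29.2% of the unshared and 47.7% of the shared sites at promoters. Promoter shares of the proteins were similar, with 39.8% of the S100A8 and 42.7% of the S100A9 sites.

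The promoter share was lower among unshared sites without a TAM call of their own protein than among those with one. Of the 70 unshared sites that no TAM library of their own protein called, 16 (22.9%, 13.7 to 34.5) were promoter-proximal and 27 (38.6%) were intronic. Of the 211 sites with such a call, 99 (46.9%, 40.03 to 53.9) were promoter-proximal. Of the 29 sites that no TAM library of either protein called, 4 (13.8%, 3.89 to 31.7) were. These sites also differed in the other protein's lists. TAM libraries of the other protein called 20.3 percentage points more of the promoter-proximal than of the distal unshared sites (higher in 6 of 6, exact permutation p = 0.03125). Without S100A9 EtOH replicate 1, which sets part of the S100A9 sites, this difference was 7.59 points (exact permutation p = 0.53125), and with equal numbers of top peaks it was 9.01 points (exact permutation p = 0.0625). TAM libraries of the other protein called unshared sites less often than shared ones at either position. The difference was −24.3 points at promoter-proximal and −39.8 points at distal sites. The same libraries called 25.5 points more of the unshared sites with a TAM call of their own protein than of the rest (6 of 6, exact permutation p = 0.03125). With correlated binding of the proteins, a difference in this direction can follow from the grouping itself. Without S100A9 EtOH replicate 3 that difference was 17.5 points (exact permutation p = 0.09375).

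**Figure D3:**
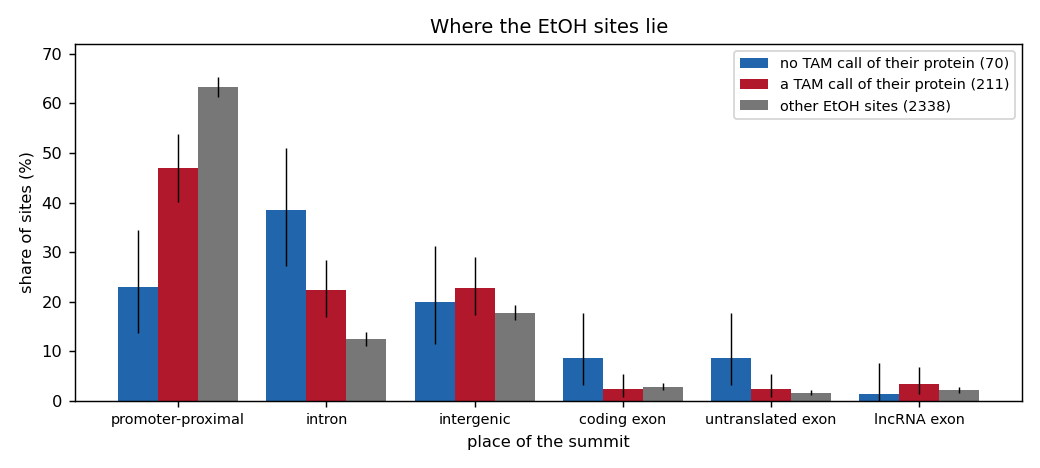
Share of sites (y axis, %) by the place of the summit (x axis), for the 70 unshared sites that no TAM library of their own protein called (blue), the 211 unshared sites that one did (red) and the 2338 shared sites (grey), with exact 95% binomial intervals as bars. The promoter-proximal share is 22.9%, 46.9% and 63.3%, and the intronic share runs the other way.

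At promoters, unshared and shared sites had similar base composition. Median GC content in 201 bp around the summit was 67.7% in both, and the ratio of observed to expected CpG was 0.877 and 0.905. Away from promoters the CpG ratio was 0.365 at unshared and 0.516 at shared sites, and median GC was 61.2% and 61.7%. Promoter-proximal summits lay a median of 57 bp from the start at unshared and 63 bp at shared sites.

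Motifs were read in the same 201-bp window. Motifs of fewer than 10 letters were ETS (CGGAAG), KLF/SP1 (CCCCGCCC), AP-1 (TGACTCA), CREB (TGACGTCA), C/EBP (TTACNNAA or TTGCNNAA), NFY (CCAAT), YY1 (AAGATGGC), E-box (CACGTG) and the STAT3 palindrome. CTCF, NRF1, THAP11 and ZBTB33 were searched with longer consensus sequences. No spelled motif contains another, and a match only describes the letters of the window. An ETS match stood in 49 unshared sites (17.4%) and 24.8% of shared sites, and in 18.3% of 20048 windows at gene starts. Split by position, the ETS share was 28.7% and 32.6% at promoters and 9.64% and 11.3% at distal sites, so part of that gap went with position. KLF/SP1 matches were found in 23 of 115 unshared and 296 of 1480 shared promoter-proximal sites, compared with 22.5% of the gene-start windows.

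Distal unshared sites had CCAAT boxes in 32 of 166 windows (19.3%, 13.6 to 26.1), and distal shared sites in 101 of 858 (11.8%, 9.69 to 14.1). The same share was 19.4% at distal confident TAM sites, and 25.9% at gene starts. C/EBP matches were in 19.3% of distal unshared and 15.5% of distal shared sites, and in 8.48% of gene-start windows. At promoter-proximal sites the C/EBP shares were 8.70% and 5.27%. Over all sites they were 14.9% (10.99 to 19.7) and 9.02% (7.89 to 10.3). The unshared set holds more distal sites, and within either position the C/EBP intervals overlapped. AP-1 matches were in 18.7% and 22.1% of distal sites, below the 35.2% of distal confident TAM sites. At promoter-proximal sites the AP-1 shares were 3.48% and 3.18%, compared with 2.64% of gene-start windows. Gene-start windows are a background for promoters alone, and no background of distal windows outside the sites was counted. The CTCF motif was in 21 of the 281 sites (7.47%, 4.69 to 11.2) and in 8.94% of shared sites, with 2.44% of gene-start windows. Among distal sites the intervals of unshared and shared sites overlapped for the CCAAT box, C/EBP, AP-1 and CTCF, for the CCAAT box by little. No other motif exceeded 5% of the unshared sites, and 103 (36.7%) held none of the 13.

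**Figure D4:**
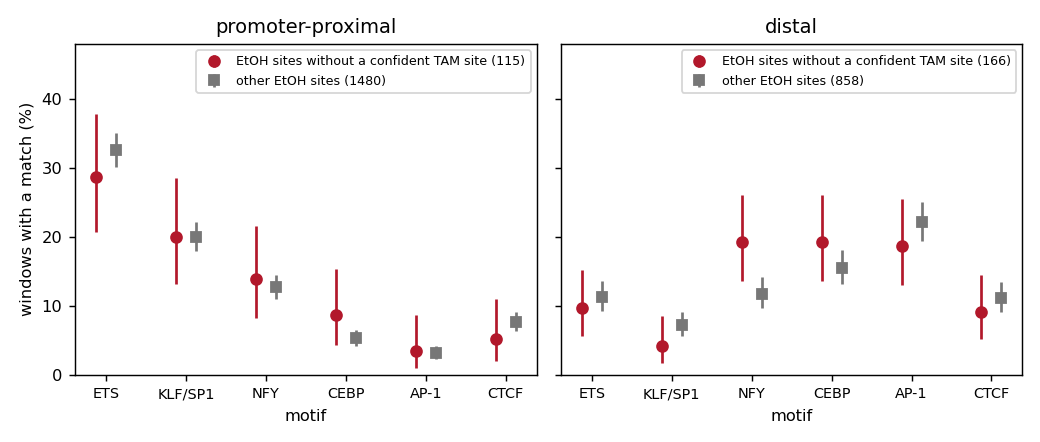
Share of 201-bp windows with a motif (y axis, %) at promoter-proximal (left) and distal (right) sites, for unshared sites (red circles, 115 and 166) and shared sites (grey squares, 1480 and 858), with exact 95% binomial intervals. At distal sites the CCAAT box (NFY) stands at 19.3% and 11.8%, and the intervals of the other motifs overlap widely.

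A site's EtOH rank was the mean percentile of fold enrichment over the EtOH libraries that called it. Libraries without a call did not lower this rank. The sites with the highest EtOH rank ran from sites with 1 or no TAM peak of their protein to sites with peaks in all 3 TAM libraries. All were chosen for EtOH calls without a confident TAM site of the same protein, so that protein's lower values in TAM follow from the choice and are given as a description. The S100A8 site 37021 bp upstream of FAT2 (chr5:151007710-151008215), an atypical cadherin gene of epithelial cells, had fold enrichments of 13.6 and 11.7 in the EtOH libraries. In TAM only replicate 1 had a peak there, at 5.38-fold, and no S100A9 TAM library had any. The S100A8 site in an intron of RAMP1 (chr2:238804670-238805073), which encodes a subunit of the CGRP receptor, had 11.3 and 13.9 in EtOH, no peak in TAM replicate 1, and 4.60 and 7.56 in replicates 2 and 3. The S100A8 site 30992 bp upstream of KRT17 (chr17:39811880-39812584), a basal keratin gene, was unshared by replicate count alone. It had 11.2 and 11.98 in EtOH and 3.67, 11.8 and 5.62 in TAM, so the groups overlapped. All 6 S100A9 libraries called it.

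The CHMP1B and SUPT3H sites were the other S100A8 sites of highest rank at promoters. CHMP1B encodes an ESCRT-III membrane-remodelling subunit, and its site (chr18:11849887-11850291) lay 1284 bp upstream of the start. Fold enrichment there was 10.1 and 12.6 in EtOH, and in TAM 7.88 in replicate 2 alone. SUPT3H encodes a subunit of the SAGA coactivator, and its site (chr6:45345806-45346020) lay 224 bp upstream of the start, inside RUNX2. S100A8 fold enrichment was 10.9 and 10.8 in EtOH, 3.73 and 10.4 in TAM replicates 1 and 2, and without a peak in replicate 3. S100A9 had 12.8, 7.82 and 16.1 at the same site in TAM, all called, and no EtOH call.

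The S100A9 site of highest EtOH rank lay over a coding exon of ESR1 (chr6:152382075-152382300), 226 bp wide. Its S100A9 fold enrichment was 12.9 and 10.3 in EtOH replicates 1 and 3 without a peak in replicate 2, and 5.41 and 5.03 in TAM replicates 2 and 3. The TAM peaks had −log10 q of 6.22 and 6.90, just under the threshold. The cells carry the ER-Src fusion, which contains ESR1 coding sequence, and reads of that construct and reads of the endogenous exon cannot be told apart in a peak list. Over ESR1 coding exons there were 4 confident S100A9 EtOH sites, of which this was the 1 unshared, 3 confident TAM sites of S100A9, and 1 EtOH and 1 TAM site of S100A8. No unshared site lay over coding exons of SRC, S100A8 or S100A9.

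The next S100A9 sites by rank fell into those with few TAM peaks and those with many. SEPTIN9 encodes a cytoskeletal GTPase, and the site in its untranslated exon (chr17:75450304-75450623) had 10.5 and 10.3 in EtOH replicates 1 and 3 and 5.54 in TAM replicate 2 alone. The SEPTIN9 summit lay 260 bp after a start, just past the 250 bp limit for a promoter-proximal site. CFAP99 is a cilium-associated gene, and its intronic site (chr4:2431651-2431895) had 15.8 and 8.81 in the same EtOH replicates and no S100A9 TAM peak. EtOH replicate 2, the shortest list, had no peak at either. The promoter sites of ELF2, an ETS factor gene, of IL1RAP, the accessory chain of the interleukin-1 receptor, and of NELFB, a subunit of the negative elongation factor, differed from these. Each had peaks in all 3 S100A9 TAM libraries, of which 1 passed the threshold, and all 3 S100A8 TAM libraries called each of them. At ELF2 (chr4:140098924-140099321) S100A9 fold enrichment was 9.60 and 9.91 in EtOH replicates 1 and 3 and 5.64, 6.80 and 9.78 in TAM. A confident S100A9 TAM site lay 130 bp from the ELF2 site.

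**Figure D5:**
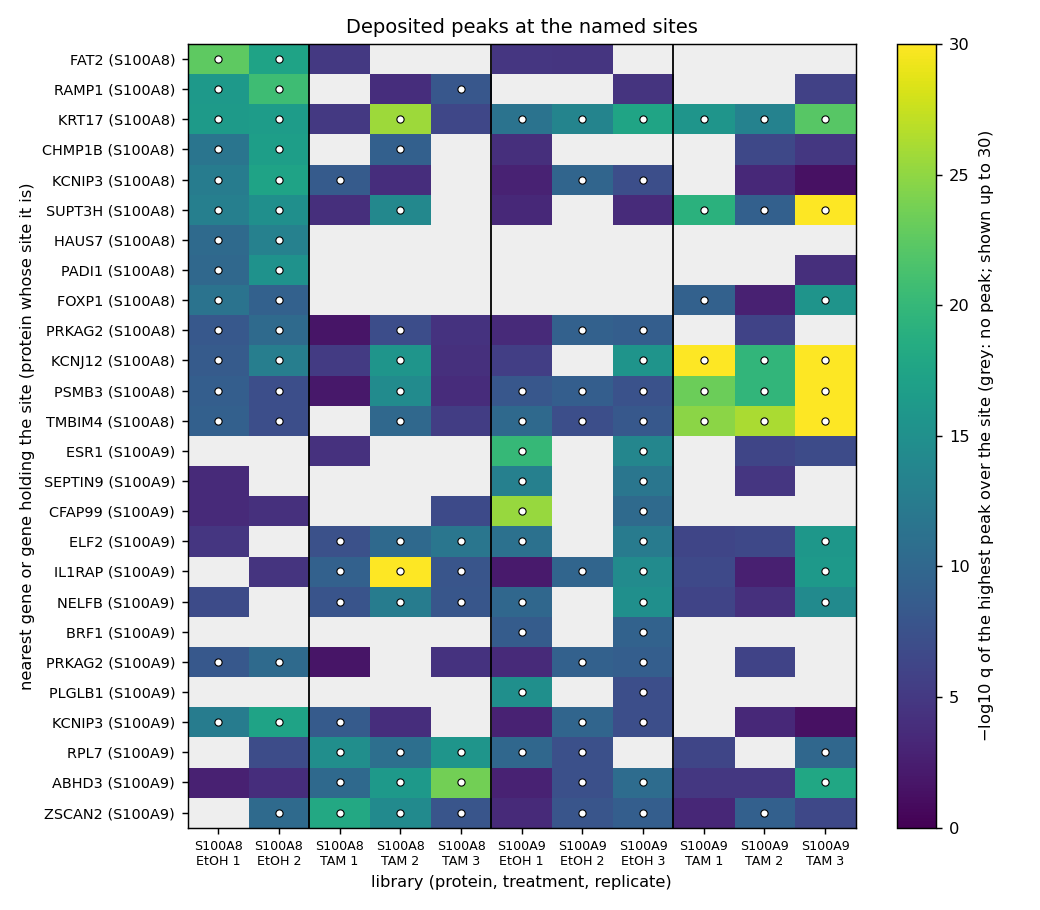
Highest −log10 q of a deposited peak over each named unshared site (rows, with the protein whose site it is) in the 11 libraries (columns), as colour up to 30, grey where no peak is listed, and with a white dot where the call passed 7. The rows of HAUS7, BRF1 and PLGLB1 are empty outside their own EtOH columns, whereas KCNJ12, PSMB3 and RPL7 carry dots in all 3 TAM columns of the other protein. Peaks beside a site are not shown, such as the confident S100A9 TAM site 365 bp from BRF1.

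At 16 of the 281 sites (5.69%) no TAM library of the same protein had any deposited peak, and 2 of the 16 were promoter-proximal. Of the S100A8 sites, HAUS7, an augmin subunit gene of the mitotic spindle, held an intronic site (chrX:152728626-152728881) with 9.22 and 10.8 in EtOH and no peak in any of the other 9 libraries. The untranslated exon of PADI1 (chr1:17571849-17572088), a peptidylarginine deiminase gene of epithelia, had 9.01 and 11.6 in EtOH and a single peak elsewhere, at 3.97 in S100A9 TAM replicate 3. FOXP1, a forkhead factor gene, held an intronic site (chr3:71119026-71119238) with 9.94 and 9.07 in S100A8 EtOH and none in S100A8 TAM. S100A9 had peaks there in all 3 TAM libraries, at 5.23, 4.13 and 7.15, of which the first and last were called.

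Among the S100A9 sites without any S100A9 TAM peak, the promoter site of BRF1 (chr14:105766619-105766889), a subunit of the RNA polymerase III factor TFIIIB, had 8.78 and 8.54 in EtOH replicates 1 and 3. A confident S100A9 TAM site lay 365 bp from it, so only the region itself was without a TAM peak. The intergenic site nearest to PLGLB1 (chr2:87623805-87624026), 374936 bp from its start, had 10.6 and 7.37 in the same replicates. Neither had a peak in any S100A8 library or in S100A9 EtOH replicate 2. The repeated letters of the PLGLB1 window are printed above.

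Both proteins had an unshared site at 2 places, in KCNIP3 and in PRKAG2. KCNIP3 encodes a calcium-binding channel-interacting protein, and the sites lay in its intron (chr2:95981612-95982300 and chr2:95981754-95982129). S100A8 had 10.3 and 11.7 in EtOH, and 6.93 and 5.23 in TAM replicates 1 and 2. S100A9 had 4.53, 9.67 and 7.37 in EtOH, and 5.08 and 2.79 in TAM replicates 2 and 3. The S100A9 groups overlapped through EtOH replicate 1. PRKAG2 encodes a regulatory subunit of the AMP-activated kinase. At its intronic sites (chr7:151393415-151394193 and chr7:151393948-151394285) S100A8 had 7.70 and 8.94 in EtOH and 3.86, 6.90 and 5.90 in TAM. S100A9 there had 5.20, 9.04 and 8.19 in EtOH and a single TAM peak of 6.06.

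At other sites the second protein was strongest in TAM. The promoter site of PSMB3 (chr17:36908032-36908249), a proteasome subunit gene, had S100A8 fold enrichments of 8.65 and 6.74 in EtOH and 2.83, 7.39 and 3.64 in TAM. S100A9 had 7.56, 8.27 and 7.24 there in EtOH and 11.2, 11.9 and 20.5 in TAM, without overlap. KCNJ12, a potassium channel gene, showed 7.54 and 9.06 for S100A8 in EtOH, 4.07, 8.86 and 4.14 in TAM, and 16.1, 11.6 and 12.2 for S100A9 in TAM. The reverse case was the promoter of ABHD3, a lipase gene (chr18:19284455-19284845). S100A9 had 4.87, 7.74 and 9.42 in EtOH and 5.74, 5.63 and 9.74 in TAM, whereas S100A8 had 4.75 and 5.52 in EtOH and 8.49, 10.8 and 14.9 in TAM. These sites were chosen for their calls in the second protein's TAM lists, so these values are a description.

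Promoter-proximal unshared sites touched 134 of 20090 protein-coding genes (0.667%), and shared sites touched 1390 (6.92%). Replication-dependent histone genes, which package newly made DNA, had the largest share of the 12 gene groups counted, with 5 of 64 genes at unshared and 8 at shared sites. They were H1-5, H2AC11, H2BC9, H2BC11 and H3C7, all within the histone clusters of chromosome 6. The genes outnumber the sites, because a site counts at every gene start in its window. The sites were those at H2AC11, H1-5 and H2BC9, all of S100A9. They lay 216, 1565 and 947 bp from a confident S100A9 TAM site. The H2AC11 site had S100A9 fold enrichments of 8.81, 8.38 and 4.67 in EtOH and 5.64, 5.07 and 9.33 in TAM, which overlap. At H1-5, S100A9 had 7.89 and 7.24 in EtOH replicates 1 and 3, no peak in EtOH replicate 2, and 3.05, 6.11 and 5.63 in TAM. Whether reads of histone genes of similar sequence were split or lost by unique mapping was not tested, and these sites are uncertain.

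The other gene groups had 0 to 2 genes at unshared sites. Cytosolic ribosomal protein genes had 2 of 84 (RPL7 and RPS27A), mitochondrial ribosomal protein genes 2 of 78 (MRPL2 and MRPS34) and splicing factor genes 2 of 74 (HNRNPUL1 and SNRPD2). Respiratory chain (COX6C), ZNF zinc finger (ZNF343), proteasome (PSMB3) and AP-1, NF-κB and STAT3 genes (RELB) had 1 each. Translation factor, heat shock, cell cycle and CTCF and cohesin genes had 0 of 72, 87, 80 and 8, and at the 0.667% of all genes such groups would hold under 1 gene each. Shared sites stood at 1 to 41 genes of these 11 groups. At RELB, an NF-κB subunit gene, S100A8 fold enrichment was 8.07 and 8.26 in EtOH and 5.66, 11.5 and 3.93 in TAM, so the groups overlapped. No S100A9 EtOH library had a peak at RELB, and the S100A9 TAM values were 5.36, 7.97 and 17.0.

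The share of EtOH sites that were unshared varied between chromosomes, without a test. Chromosome 13 had 1 unshared site among its 102 EtOH sites (0.980%), and chromosome 1 had 36 of 513 (7.02%). Chromosome 6 had 21 of 113 (18.6%) and chromosome 18 had 9 of 41 (21.95%). Chromosomes 1, 15 and 5 held 477, 217 and 174 of the 2338 shared sites, the most of any chromosome. Copy number along the chromosomes was not tested.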

How the data were processed

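Peak lists of 11 Flag ChIP libraries in MCF-10A–ER-Src cells were analyzed. The authors mapped reads to hg19 by Bowtie2, used those with a unique position, and called peaks by MACS2 against each sample's input. Versions are not given in the sources used here. The deposited fold enrichment is a ratio of the signal at the summit to input, and the deposited −log10 q value comes from the same call. The lists reach down to q = 0.05. Depth per library is unknown, and a filter of the study on raw reads could not be repeated. Input and Pol II samples were not used here.

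Peaks at q of at most 1e-07 on chromosomes 1 to 22 and X were merged by 1 bp and kept with at least 2 replicates. The members, gene lists and tests were chosen with earlier results of these data known. A site's summit is that of its highest-ranked peak. Positions and sequence came from GRCh37 with GENCODE release 44 mapped to it. Named sites followed fixed rules: sites of both proteins, the highest EtOH ranks, those without TAM peaks, those over ESR1, SRC or S100 exons, promoter sites of the gene groups, CTCF matches, the sites next to the threshold and those called in every TAM library of the other protein. Tests were exact permutations over libraries, two-sided by doubling the smaller tail, on libraries of the other protein alone. The comparisons of promoter-proximal with distal sites and of sites with and without a TAM call of their protein were added after seeing the data. All p values printed in the Results are raw. Benjamini-Hochberg adjustment over the 6 tests at the main setting gives 0.0375 for each but the EtOH comparison with shared sites, which stays at 0.0625. The p values of alternative settings were not adjusted. Replicate numbers were not treated as pairs, since the 5 same-numbered EtOH and TAM libraries did not deviate together (correlations −0.0145 to 0.00489). The rule and tests were tested on simulated data. Python 3.11.15, numpy 2.4.6, scipy 1.17.1, pysam 0.24.0 and matplotlib 3.10.9 were used. Alternatives changed the q threshold, overlap, replicate number, region width, library size, sequences, motif window and promoter window, and left out each library.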

Additional observations from a re-analysis of the deposited data

Results flagged for a closer look

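Sequences outside chromosomes 1 to 22 and X were left out of the sites above and also held confident EtOH sites. By the same rule, 55 confident EtOH sites lay on such sequences, and 20 of them had no confident TAM site of their protein. All 20 lay on the unplaced sequence gl000220, 8 of 21 S100A8 sites and 12 of 23 S100A9 sites there. No control list without a tagged protein was compared, so background and binding on gl000220 cannot be told apart here. The groups hold 2 or 3 libraries each, so single libraries were not screened for outlying values.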

How the results depend on the processing

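The number of sites depended on the threshold and on each library. It was 67 (S100A8), 22 (S100A9) and 89 (pooled) at q of at most 1e-10, 718, 751 and 1469 with every deposited peak, and 37, 33 and 70 when 1 TAM replicate sufficed to make a TAM site. With the same number of top peaks in each library it was 268, 493 and 761, and with 100 bp on either side of each summit the S100A9 count was 171. Leaving out 1 library gave 171 to 383 S100A8, 20 to 337 S100A9 and 191 to 508 pooled sites. Neither S100A8 EtOH library could be left out of the counts, since 2 replicates are needed.

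The TAM minus EtOH difference in the other protein's calls turned to −2.72 points (p = 0.17, exact permutation) with equal numbers of top peaks. With the replicate block it was 40.2 points (exact permutation p = 0.0625, the smallest that pairs allow), and without 1 library 37.2 to 44.1 points. It was 23.7 points with every deposited peak and 24.6 when 1 TAM replicate sufficed. The difference from shared sites in TAM was −36.3 to −26.7 points, and in fold rank −20.5 to −12.7, without 1 library. The former was −17.5 points with any deposited peak as a call, and the latter −7.91 with equal numbers of top peaks. Leaving out a TAM library raises p to 0.0625 because 5 libraries allow no smaller value. In EtOH it was −34.8 to −26.1. These differences kept their direction under every other alternative run. The promoter share moved to 28.2% with every deposited peak, 47.8% with windows at summits, 22.9% when 1 TAM replicate sufficed, 62.5% with equal numbers of top peaks, 47.0% with lncRNA starts and 29.2% with gene starts alone, and was 39.5% to 48.6% without 1 library. The CTCF share was 2.86% when 1 TAM replicate sufficed and 4.27% within 50 bp of the summit. The cause was not tested.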
